A study of Mus musculus with 40 samples.

Results

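Genes of DNA replication and mitosis were followed in CD11b+ cells that had been sorted from mouse brains carrying gliomas. The set held 54 genes chosen by name and role, 28 that act in S phase (licensing of origins, the replication fork, the supply of deoxynucleotides) and 26 that act in mitosis. The choice was made with earlier results of these data known. All 54 were found among the 54513 rows of each expression table. Levels are in RPKM (read counts scaled to transcript length and to library size), taken as the deposited value minus the constant of 2 that every table carries. A mean of at least 1 RPKM over all samples of a table was reached by 35 members at 21 days post-implantation (DPI) of GL261, by 48 at 28 DPI and by 49 in the U87-MG experiment. Nearest the limit were Nusap1 (0.985) and Ccne1 (1.08) in the first table, Bub1 (0.990) and Hmmr (1.02) in the second, and Bub1 (0.815) and Kif23 (1.01) in the third.

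The study asked how 7aaRGD, a peptide that blocks the binding of glioma ligands to integrins, acts on glioma-associated myeloid cells, alone or with an antibody against PD-1. Male mice of 10 to 12 weeks received glioma cells into the right striatum together with an osmotic pump that delivered water (vehicle), 7aaRGD, or 7aaRAE, the control peptide in which the RGD motif is replaced. Both peptides were given at 2 mg/ml. In the first experiment, C57BL/6 mice with GL261 tdTomato+luc+ tumors, a murine glioma line, gave 3 samples each of vehicle, 7aaRGD and 7aaRAE at 21 DPI, beside 3 naive samples without tumor. In the second, GL261 tumors were sampled at 28 DPI after vehicle (n = 4), 7aaRGD (n = 4), anti-PD-1 at 10 mg/kg (n = 3) or 7aaRGD + anti-PD-1 (n = 3), and mice not given anti-PD-1 received control IgG. The methods give C57BL/6 for these animals while the sample labels give nude mice, so their strain is uncertain here. In the third, Athymic Nude-Foxn1nu mice, which lack mature T cells, carried U87-MG RFP+ tumors, a human glioblastoma line, with 3 samples each of vehicle, 7aaRGD and 7aaRAE at 21 DPI. A sample was a pool of 2 animals at 21 DPI and 1 mouse at 28 DPI. The U87-MG columns carry the group but no replicate number, so their samples are numbered here by the order of the columns. Between 9330 and 9823 protein-coding genes reached 1 RPKM per sample, and the depth is unknown.

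Proliferating cells duplicate their DNA once per cycle. In G1, Cdt1 and Cdc6 load the MCM helicase onto origins, a step that geminin (Gmnn) blocks until the next division, and at the fork the sliding clamp Pcna tethers the polymerases. Genes of S phase are classical targets of E2F factors, whereas genes of G2 and mitosis are controlled through CHR and CCAAT elements of their promoters. In the brain, microglia renew slowly by local division, and monocyte-derived cells that enter a tumor can also divide.

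The sequence before the start sites of the 2 classes is a property the choice of members did not use. RefSeq windows from 250 bases before to 50 after the start (GRCm38.p6) were found for 22 S-phase and 21 mitotic members. For genes with more than 1 window in the table, the window nearest the annotated 5′ end was searched, so that each member entered once, whereas the shares over all windows count every window of a gene. The E2F letters searched were TTCCCGC as well as its variants TTCGCGC together with TTGCCGC and likewise TTGGCGC, on both strands and with overlapping matches counted. They were present in 63.6% of the S-phase windows, in 23.8% of the mitotic windows and in 9.57% of all 32851 windows. The CHR letters TTTGAA or alternatively TTCGAA were present in 22.7% of the S-phase, 81.0% of the mitotic and 19.2% of all windows. CCAAT was present in 63.6%, 90.5% and 37.4%, and CHR and CCAAT together in 18.2%, 81.0% and 7.52%, respectively. These matches are descriptions of letters and no evidence of binding. Among mitotic members, the windows of Ccnb1, Birc5, Nusap1 and Cenpe held no CHR letters. Among S-phase members, those of Mcm2, Cdc45, Pcna, Lig1, Fen1, Tyms, Tk1 and Ccne1 held no E2F letters. Stretches before the start of 3 S-phase and 4 mitotic members are shown as examples. All of them hold the E2F (S-phase) or CHR (mitotic) letters, so they do not represent the windows without these. Matched letters of any of the 3 motifs are in capitals, on the strand of the gene:
Mcm5 (chr8:75109359-75109508, plus strand): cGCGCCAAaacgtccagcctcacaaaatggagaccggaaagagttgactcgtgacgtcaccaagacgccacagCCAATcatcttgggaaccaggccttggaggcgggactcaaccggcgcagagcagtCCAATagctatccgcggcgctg
Mcm6 (chr1:128359706-128359855, minus strand): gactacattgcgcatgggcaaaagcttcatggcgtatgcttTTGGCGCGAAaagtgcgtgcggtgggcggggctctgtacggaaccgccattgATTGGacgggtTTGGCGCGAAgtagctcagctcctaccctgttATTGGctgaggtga
Chaf1a (chr17:56040266-56040415, plus strand): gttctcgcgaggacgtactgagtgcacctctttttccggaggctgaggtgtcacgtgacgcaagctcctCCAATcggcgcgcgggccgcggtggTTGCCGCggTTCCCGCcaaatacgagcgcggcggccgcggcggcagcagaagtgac
Cdc20 (chr4:118437353-118437493, minus strand): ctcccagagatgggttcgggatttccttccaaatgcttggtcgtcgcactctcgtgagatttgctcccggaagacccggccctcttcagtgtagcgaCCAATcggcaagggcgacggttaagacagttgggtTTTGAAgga
Cdk1 (chr10:69352939-69353062, minus strand): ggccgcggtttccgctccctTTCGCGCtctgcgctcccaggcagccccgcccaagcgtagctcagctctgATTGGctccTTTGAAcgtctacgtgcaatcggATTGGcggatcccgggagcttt
Mki67 (chr7:135716380-135716529, minus strand): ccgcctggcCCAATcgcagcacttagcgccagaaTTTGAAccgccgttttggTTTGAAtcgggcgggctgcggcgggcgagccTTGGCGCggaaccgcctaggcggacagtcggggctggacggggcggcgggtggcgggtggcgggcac
Top2a (chr11:99024190-99024339, minus strand): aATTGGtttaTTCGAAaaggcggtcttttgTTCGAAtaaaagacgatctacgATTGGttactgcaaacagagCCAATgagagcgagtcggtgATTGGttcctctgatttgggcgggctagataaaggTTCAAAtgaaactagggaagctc
Mcm6 shows 2 pairs of overlapping E2F matches, and Chaf1a, a subunit of the histone chaperone that assembles nucleosomes behind the fork, has 2 separate ones. Top2a, the topoisomerase that untangles sister chromatids, and Mki67, which coats mitotic chromosomes, hold 3 and 2 CHR matches.

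In naive brains, CD11b+ cells held the S-phase genes at low to moderate levels and most mitotic genes near the lower limit. The naive mean was at least 1 RPKM for 16 of 28 S-phase members and for 2 of 26 mitotic members, Cdc20 and Stmn1. Pcna was the highest at 22.4 ± 0.53 RPKM (SD, n = 3), followed by Mcm3 at 20.4 ± 0.67 and the flap endonuclease Fen1 at 7.11 ± 0.22. Mki67 stood at 0.226, 0.327 and 0.435 RPKM and Top2a at 0.247, 0.683 and 0.687.

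Vehicle-treated GL261 tumors had higher levels of nearly the whole set. The mean was higher than in naive brains for 53 of 54 members, and for 49 of 54 all 3 vehicle samples lay above all 3 naive samples. The summed level of the S-phase members was 89.4 ± 1.01 RPKM in naive and 157 ± 14.9 in vehicle samples, and that of the mitotic members 11.9 ± 1.97 and 55.1 ± 13.9, so that mitotic transcripts made up 11.8% ± 1.63 and 25.7% ± 3.60 of the summed level. The median ratio of vehicle to naive RPKM was 2.34 for S-phase and 6.47 for mitotic members. Only 2 of 26 mitotic members had a naive mean of at least 1 RPKM, and 9 were under 1 RPKM in both groups. The mitotic ratio thus rests mostly on naive values near the lower limit. The comparison of the 2 classes is descriptive, since the members of a class share their samples.

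By limma on log2(RPKM + 1), 27 of the 32 members tested rose and 1 fell, against a background in which 34.6% of 9731 protein-coding genes rose and 48.2% fell. The median log2 fold change was 1.07, beside -0.14 over all genes tested. The filter uses the mean over both groups, so a member that is low in naive cells was tested only where vehicle raised its mean, which holds for most of the 13 mitotic members tested. Of the 18 members with a naive mean of at least 1 RPKM, 13 rose and 1 fell. These were 12 risen of 16 S-phase members and 1 risen of 2 mitotic members, so the shares called in the 2 classes are not compared. With each sample of the comparison left out in turn, between 27 and 29 members passed.

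Among the licensing genes, Mcm5, a subunit of the helicase ring, was at 2.89, 3.20 and 3.18 RPKM in naive and 5.76, 8.27 and 9.15 in vehicle samples. The groups did not overlap, and Mcm5 rose by 1.07 on the log2 scale (SE 0.14, adjusted p = 0.000141). Cdt1, the loading factor, was at 4.24, 4.00 and 3.95 in naive and 10.3, 12.8 and 13.8 in vehicle samples, a rise of 1.39 (SE 0.10). Its inhibitor Gmnn rose by 1.40 (SE 0.11), from 1.57 ± 0.36 to 5.72 ± 0.39 RPKM. The helicase was not uniform. Mcm7 rose by 0.53 (SE 0.12), whereas Mcm3, already at 20.4 RPKM in naive cells, was the only member called lower, at -0.16 (SE 0.06, adjusted p = 0.035), with 17.0, 19.0 and 18.4 RPKM in vehicle samples. With median-of-ratios scaling, which moves the median of all genes from -0.14 to 0.01, the Mcm3 difference was 0.0014 and not significant (adjusted p = 0.98), and it also missed the threshold with the replicate block, with 1 fewer residual degree of freedom, and without vehicle sample 1, naive sample 1 or naive sample 2.

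At the fork, Fen1 had the smallest adjusted p of the set (3.02e-06), at 7.35, 7.09 and 6.90 RPKM in naive and 13.7, 14.5 and 16 in vehicle samples, a rise of 0.95 (SE 0.07). Pcna rose by 0.64 (SE 0.05), to 35.4 ± 1.53 RPKM. Rfc3, a subunit of the clamp loader, differed by 0.17 (adjusted p = 0.070). In deoxynucleotide supply, the inducible subunit of ribonucleotide reductase moved and the constitutive subunit was not called. Rrm2 was at 0.267, 0.389 and 0.542 RPKM in naive and 1.80, 3.27 and 3.07 in vehicle samples, a rise of 1.39 (SE 0.16), and Rrm1 was at 2.98 ± 0.12 and 3.40 ± 0.29 (0.14, adjusted p = 0.091). Thymidylate synthase (Tyms) was at 1.11 ± 0.031 and 1.12 ± 0.11 RPKM. Uhrf1, which carries DNA methylation across the fork, rose by 1.63 (SE 0.15), from 0.426 ± 0.15 to 3.45 ± 0.86 RPKM.

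Among the mitotic members, Bub1b, a kinase of the spindle checkpoint, had the largest change of the set, from 0.375, 0.461 and 0.547 RPKM in naive to 4.02, 6.26 and 4.09 in vehicle samples (1.97, SE 0.14, adjusted p = 3.64e-06). Mki67 was at 2.83, 5.01 and 2.55 RPKM in vehicle samples, a rise of 1.71 (SE 0.19). The mitotic cyclin Ccnb2 rose by 1.82 (SE 0.19) and Cdc20, which activates the anaphase-promoting complex, by 1.58 (SE 0.16). Within the vehicle group, sample 1 had the lowest value for 38 of the 42 members tested among the tumor groups, including 17 of 18 mitotic ones. Stmn1, a tubulin-binding protein, was the only mitotic member tested that was not called (0.23, adjusted p = 0.097).

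**Figure D1:**
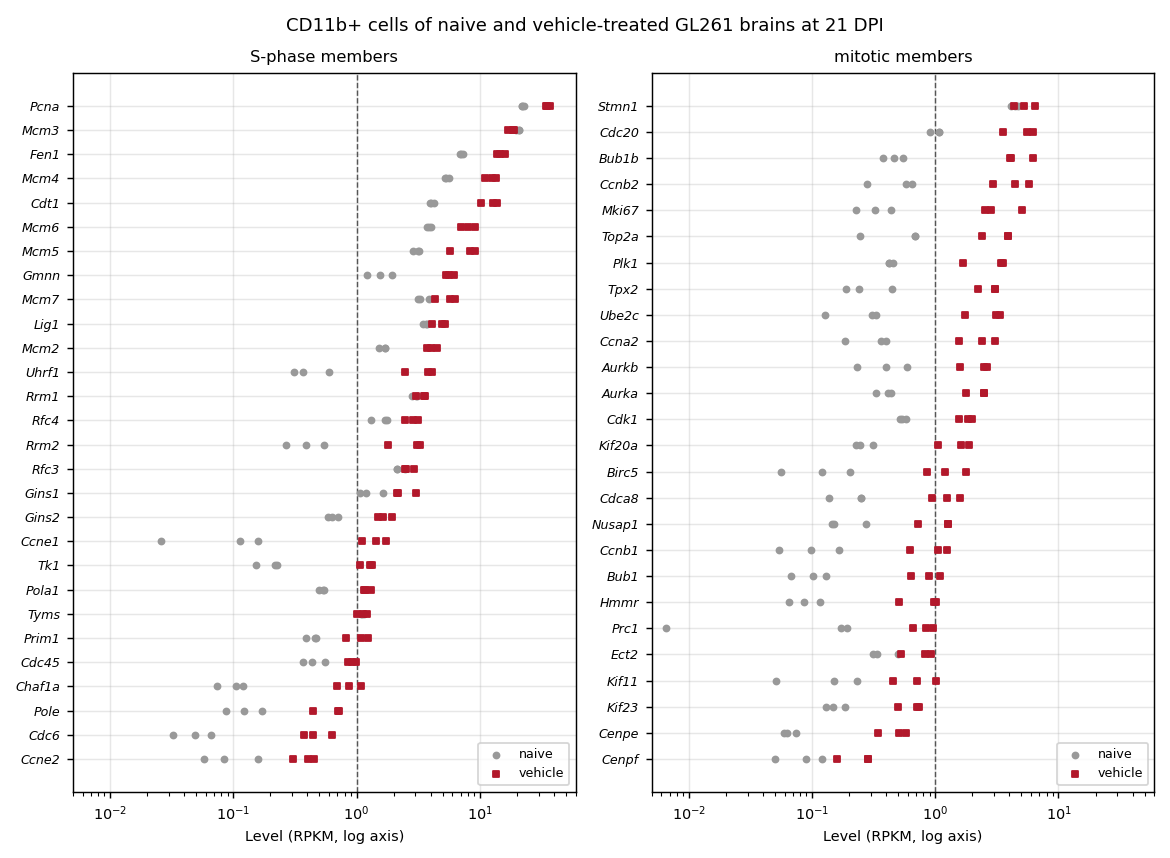
Level of each of the 54 members in RPKM (log axis) in the 3 naive (grey circles) and 3 vehicle (red squares) samples at 21 DPI, S-phase members on the left and mitotic members on the right, with the dashed line at 1 RPKM. Vehicle points lie to the right of naive points for 49 members, and only Cdc20 and Stmn1 reach a naive mean of 1 RPKM among the mitotic members.

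Related genes from other lists of the cell cycle moved in both directions. Their counts are to be read against the 34.6% of all genes that rose and the 48.2% that fell. The same filter on the mean of both groups applied, and only 24 of 60 other mitosis genes were tested. A gene low in naive cells therefore entered only where vehicle raised its mean. Of 24 other mitosis genes tested, 21 rose, among them Lmnb1 (2.50), Tuba1c (2.24) and Ncapg2 (1.87), and 2 fell, the condensin subunit Ncaph (-1.25) and the centromere chaperone Hjurp (-0.70). Of 26 other replication genes, 14 rose, led by Timeless (1.65), and 4 fell, among them the origin recognition subunit Orc2 (-0.42). Of 13 regulators of cell-cycle transcription, 5 rose and 6 fell: the activators E2f1 (2.01) and E2f2 (1.92) rose while E2f3 fell by 1.87. Of 15 G1 cyclins, kinases and inhibitors, 7 rose and 5 fell, with the inhibitors Cdkn1a (4.21) and Cdkn1c (-2.19) at the ends.

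The cell types of the sort also differed between these groups. All 10 homeostatic microglia markers fell, with a summed level of 16763 RPKM in naive and 1769 in vehicle samples, and 9 of 10 monocyte and macrophage markers rose, from 95.8 to 4693. Markers of glioma and glial cells summed to 1.52 to 2.42 RPKM in naive and 12 to 16.8 in vehicle samples, and 3 of 3 tested rose. Of the remaining lists, 2 of 2 NK cell and 2 of 2 endothelial markers rose, as did 3 of 5 dendritic cell markers, and 4 of 5 neutrophil markers fell. In sorted bulk cells, a change in the number of cells of a type and a change of RNA per cell cannot be told apart. The 8 markers of CD11b+ myeloid cells summed to 5599 to 5854 RPKM in naive and 3796 to 4286 in vehicle samples. The part of these shifts in the rise of the replication and mitosis genes was not tested.

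The 12 members below the filter over the tumor groups were not tested against peptides at 21 DPI, among them Cdc6, which loads the helicase with Cdt1, at 0.486 ± 0.133 RPKM after vehicle.

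At 21 DPI, neither peptide was accompanied by a called change in the set. For 7aaRGD against vehicle, 0 of 42 members tested passed in limma, where 0.138% of 9444 genes were higher and 0.0106% lower. At an unadjusted p under 0.05, 0 members were higher and 1 was lower, where 879 of 9444 genes were higher and 401 lower. The 1 member was Gmnn, at 5.19, 4.36 and 4.97 RPKM after 7aaRGD and 5.37, 5.65 and 6.14 in vehicle samples (-0.20, adjusted p = 0.37). Groups without overlap were seen for 2 members in the upward direction (background 12.5%), Tpx2 and Cdc45, and for 1 in the downward direction (background 5.11%). The median log2 fold change was 0.05, beside 0.02 over all genes. Glioma and glial markers summed to 20.7 to 33.0 RPKM after 7aaRGD and 12 to 16.8 after vehicle. Homeostatic microglia markers summed to 2047 to 2722 RPKM after 7aaRGD and 1362 to 1987 after vehicle. Monocyte and macrophage markers summed to 3063 to 3398 and 3940 to 5666, respectively. In these last 2 lists, 0 of 10 markers each were called. Sums of T cell, dendritic cell and neuronal markers were also higher after 7aaRGD without overlap, while the NK cell, B cell, neutrophil and endothelial sums overlapped. The part of these shifts in the member values was not tested. For 7aaRAE against vehicle, 0 members passed and 0 had an unadjusted p under 0.05. All genes gave 0 calls, with 313 higher and 288 lower at that unadjusted p.

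The 2 peptides, given at the same dose for the same time, did not differ detectably from each other in these genes at 21 DPI. In 7aaRGD against 7aaRAE, 0 of 42 members passed in limma and 0 had an unadjusted p under 0.05, where 413 of 9444 genes were higher and 108 lower. The 95% intervals of the differences had a median half-width of 0.25 on the log2 scale. Mki67 was at 3.87, 3.66 and 2.65 RPKM after 7aaRGD, 2.94, 3.26 and 4.97 after 7aaRAE and 2.83, 5.01 and 2.55 after vehicle, and all 3 groups overlapped. Cdc20 was at 5.37 ± 0.99, 5.05 ± 0.90 and 5.13 ± 1.40, respectively.

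At 28 DPI the set was again not called after either single treatment. For 7aaRGD against vehicle, 0 of 48 members passed, where 0.123% of 9740 genes were higher and 0.524% lower. A total of 0 members had an unadjusted p under 0.05, where 782 of all genes were higher and 641 lower. The median log2 fold change was 0.13, beside 0.01 over all genes, with 40 of 48 members above 0. The 7aaRGD group was spread, since its sample 3 was the lowest of the 4 for 44 of 48 members and for all 23 mitotic members tested. Mki67 was at 17.0, 15.9, 7.54 and 14.7 RPKM after 7aaRGD and 11.2, 9.32, 14.2 and 14.1 after vehicle. The groups overlapped, with sample 3 below every vehicle sample and 3 of 4 above all of them. Without sample 3 the median over members was 0.28, and still 0 passed.

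For anti-PD-1 against vehicle, 0 of 48 members passed, where 10.8% of genes were higher and 12.2% lower. At an unadjusted p under 0.05, Lig1, the ligase that joins Okazaki fragments, was higher (0.45, adjusted p = 0.080), and Cdt1, Gmnn, Kif20a and Kif23 were lower. These 5 are named after their values were seen. Of all 9740 genes, 1672 were higher and 1855 lower at that unadjusted p, larger shares than among the members. Lig1 was at 6.40, 5.49 and 6.04 RPKM after anti-PD-1 and 3.43, 3.48, 5.77 and 4.08 after vehicle, with vehicle sample 3 reaching into the anti-PD-1 range. It passed without that sample (0.58, adjusted p = 0.021), and Cdt1 passed without anti-PD-1 sample 1 (-0.56, adjusted p = 0.015). Without anti-PD-1 sample 3 the count was 1 as well. The median was -0.08 for S-phase and -0.26 for mitotic members. Anti-PD-1 sample 3 was the highest of its group for all 23 mitotic members, with a summed mitotic level of 108 RPKM beside 50.2 and 60.8 in the other samples.

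After 7aaRGD + anti-PD-1, 15 of the 48 members tested fell against vehicle and 0 rose. The share of 31.2% was near the background, since 25.7% of all genes fell, while 17.5% of all genes rose. Gmnn, Cdt1 and Cdc20 had the smallest adjusted p. The 6 members below the filter at 28 DPI were Bub1, Ccne2, Cdc6, Cenpf, Ect2 and Pole. The fitted differences were below 0 for 47 of 48, with Lig1 (0.33, adjusted p = 0.14) as the exception, and the median was -0.39, beside -0.05 over all genes. In 26 members (54.2%) all 3 combination samples lay below all 4 vehicle samples, where 28.8% of all genes did so. The 26 comprised 17 of 25 S-phase and 9 of 23 mitotic members. The study itself named cell division among the terms lowered by the combination in these samples, so the direction is not independent evidence.

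Of the 11 licensing genes tested, 3 fell. Gmnn was at 8.72, 8.61, 9.92 and 9.97 RPKM in vehicle and 5.15, 5.57 and 5.20 in combination samples. The groups were far apart, and Gmnn fell by 0.71 on the log2 scale (SE 0.11, adjusted p = 0.00030). Cdt1 was at 12.2, 12.7, 12.7 and 13.6 in vehicle and 7.00, 8.24 and 5.83 in combination samples, again without overlap, and fell by 0.79 (SE 0.15, adjusted p = 0.0010). Both passed in each of 18 alternative fits.

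Of the helicase subunits, Mcm7 fell by 0.59 (SE 0.21, adjusted p = 0.035), from 7.91 ± 1.15 to 4.93 ± 0.70 RPKM, and passed in 11 of 18 alternative fits. Mcm2 to Mcm6 did not pass, with differences between -0.31 and -0.12. Mcm5 was at 7.00 ± 1.09 and 5.94 ± 0.355 RPKM.

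At the fork, Fen1 was at 15.2, 14.7, 17.2 and 15.9 RPKM in vehicle and 11.5, 10.9 and 12.2 in combination samples, with no overlap, and fell by 0.42 (SE 0.11, adjusted p = 0.0063). The clamp loader subunit Rfc4 (-0.53) and the primase subunit Prim1 (-0.47) also fell and passed in 17 and 14 of 17 alternative fits. Pcna, the most abundant member, was at 32.8 ± 2.93 and 31.5 ± 3.07 RPKM (-0.06, adjusted p = 0.79), with overlapping groups. In the remaining S-phase roles, Chaf1a (-0.40) and Ccne1 (-0.56), the cyclin of the G1/S transition, fell. None of the 4 genes of deoxynucleotide supply passed, Rrm2 being at -0.52 (adjusted p = 0.115).

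Among mitotic members, Cdc20 had the largest change of the set. It was at 4.72, 5.19, 6.81 and 7.07 RPKM in vehicle and 1.84, 3.70 and 2.42 in combination samples, without overlap, and fell by 0.94 (SE 0.21, adjusted p = 0.0032). Birc5 (survivin, of the chromosomal passenger complex) was at 1.90, 1.84, 2.69 and 2.03 in vehicle and 0.766, 1.55 and 0.828 in combination samples and fell by 0.62 (SE 0.22, adjusted p = 0.038). Its partner kinase Aurkb (-0.56), the mitotic kinase Cdk1 (-0.48), the spindle factor Tpx2 (-0.60), the kinesin Kif20a (-0.60) and the midzone protein Prc1 (-0.42) also fell. Of 17 alternative fits, Cdc20 passed in 17, Aurkb and Tpx2 in 10, Birc5 in 9, Cdk1 and Kif20a in 8 and Prc1 in 5, so that the mitotic calls other than Cdc20 depended on the fit. Mki67 was at 12.2 ± 2.37 RPKM in vehicle and 9.91 ± 0.87 in combination samples and was not called (-0.26, adjusted p = 0.42). Top2a (-0.36), Plk1 (-0.72) and Ccnb2 (-0.82) did not pass either. By flow cytometry, the study reported a significantly lower percentage of myeloid cells positive for Ki67, the Mki67 protein, after the combination. That is a protein scored per cell, whereas Mki67 here is an RNA level of all sorted cells.

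**Figure D2:**
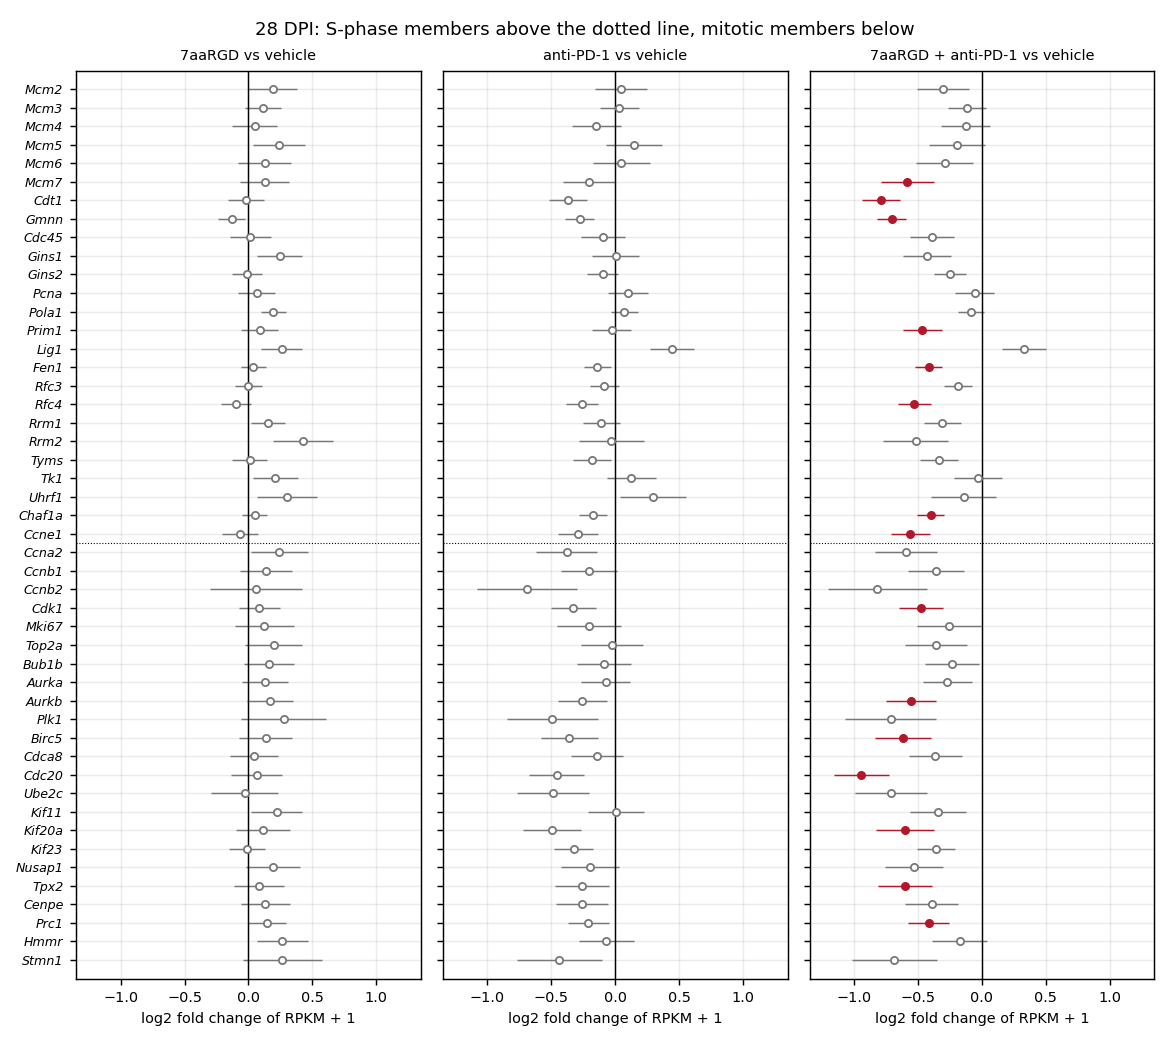
Log2 fold change of RPKM + 1 against vehicle at 28 DPI for the 48 members tested, after 7aaRGD, anti-PD-1 and both, with S-phase members above the dotted line and mitotic members below. Points are limma estimates, bars standard errors and filled red points members past an adjusted p of 0.05, which number 0, 0 and 15.

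**Figure D3:**
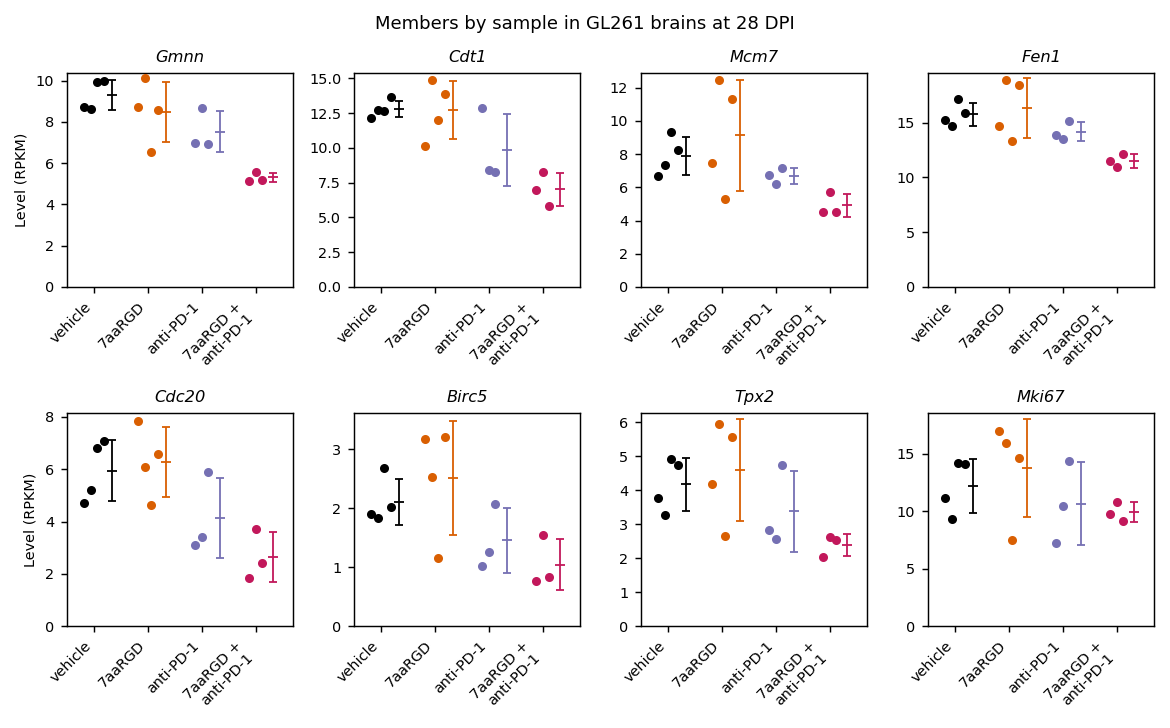
Level in RPKM of 8 members in each sample at 28 DPI by group, with the mean and SD beside the points. The combination samples lie below all vehicle samples for Gmnn, Cdt1, Mcm7, Fen1, Cdc20, Birc5 and Tpx2 and overlap them for Mki67.

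The count depended on single samples, since 7 members passed without combination sample 1, and 8 without combination sample 3, vehicle sample 3 or vehicle sample 4. It was 30 with only vehicle and combination in the fit, and 7 with the replicate number as a block, a fit in which 2190 of 9740 genes fell.

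Against 7aaRGD alone, 23 of 48 members fell after the combination and 0 rose (47.9%), where 23.5% of all genes fell, and the median was -0.49, beside -0.07. Groups without overlap were seen in 11 (22.9%), where 25.8% of genes did so. Cdc20 (-1.01), the mitotic kinase Plk1 (-0.99), Stmn1 (-0.95), Rrm2 (-0.94) and the cyclin Ccna2 (-0.83) had the largest falls past the threshold, and Cdt1 the smallest adjusted p (0.0017). Plk1 was at 7.31, 6.29, 2.36 and 6.87 RPKM after 7aaRGD and 1.5, 3.60 and 1.80 after the combination, and the groups overlapped at 7aaRGD sample 3. It passed in 7 of 17 alternative fits and Stmn1 in 9 of 18. The number of members called was 42 without 7aaRGD sample 3, 15 without 7aaRGD sample 2, 14 without 7aaRGD sample 4, 5 without combination sample 1 and 12 without combination sample 3. It was 12 with the replicate block. With only the 2 groups of a comparison in the fit, 17 members fell against 7aaRGD and 30 against vehicle, the opposite order to the counts of 23 and 15, and the difference between the 2 counts was not tested. Both combination comparisons use the same 3 combination samples, and 15 members were called lower in each.

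Against anti-PD-1 alone, 0 of 48 members passed, where 0.0205% of genes were lower. At an unadjusted p under 0.05, 0 members were higher and 5 lower (10.4%). This share was near that of all genes, of which 1075 of 9740 were lower at that p. The 5 were the S-phase members Cdt1, Gmnn, Gins1, Prim1 and Fen1, named after their values were seen. Groups without overlap were seen in 15 of 25 S-phase and 0 of 23 mitotic members (31.2% of all 48), where 15.3% of genes were lower in this way. Gmnn was at 6.98, 8.66 and 6.93 RPKM after anti-PD-1, above the 5.15 to 5.57 of the combination (-0.43, adjusted p = 0.12). The mitotic members overlapped, with a summed level of 50.2 to 108 RPKM after anti-PD-1 and 47.8 to 72.6 after the combination. The interaction of 7aaRGD and anti-PD-1 gave 0 calls among the members and among all genes in limma, with 4 members (8.33%; Gins1, Pola1, Prim1 and Rrm2) and 568 genes (5.83%) lower at an unadjusted p under 0.05. All 48 interaction estimates were below 0, as were 6238 of 9740 over all genes. The median was -0.35, beside -0.06 over all genes, and vehicle, 7aaRGD and anti-PD-1 samples enter each of them.

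In the same comparison with vehicle, the other lists are to be read against the 25.7% of all genes that fell and the 17.5% that rose. Of 30 other replication genes tested, 12 fell and 1 rose, with Wdhd1 (-0.62), Dbf4 (-0.58), which activates the origin-firing kinase, and Tipin (-0.55) falling most. Of 35 other mitosis genes, 8 fell and 0 rose, a share lowered no larger than that of all genes, among them Cdca3 (-1.09) and the centromeric histone Cenpa (-0.75). Of 15 regulators, Tfdp1, the partner of E2F proteins, and Lin54 fell (-0.52 and -0.28), and Rbl1 and Rb1 rose (0.59 and 0.35). Of 14 G1 genes, 7 fell, led by Cdk6 and Cdkn2d (each -0.80), and 3 rose, led by Cdkn1a (0.89).

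Markers of other cells moved with the combination as well. Glioma and glial markers summed to 25.2 to 43.2 RPKM in vehicle, 23.5 to 28.8 in 7aaRGD, 15.3 to 19.8 in anti-PD-1 and 10.1 to 12.5 in combination samples, and 5 of 6 tested fell in the combination. NK cell markers summed to 2.28 to 11.1 RPKM in vehicle and 25.4 to 80.1 in combination samples, and 4 of 5 tested rose. Homeostatic microglia markers summed to 1572 to 2246 RPKM in vehicle and 2418 to 2572 in combination samples, and 7 of 10 rose. Monocyte and macrophage sums overlapped, at 1857 to 2791 RPKM in vehicle and 1735 to 2913 in combination samples. Neutrophil sums overlapped too, at 202 to 374 and 187 to 321, respectively. Dendritic cell markers summed to 25.8 to 46.7 RPKM in vehicle and 69.2 to 91.7 in combination samples, and 3 of 3 tested rose. Their list shares Siglech with the microglia list and summed to 352 to 371 RPKM in naive brains, so the 2 lists are not independent. B cell markers summed to 20.7 to 32.3 RPKM in vehicle and 79.8 to 93.2 in combination samples, with 0 of 1 tested called. The same sum was 201 to 233 RPKM in naive brains, so it was not taken as a measure of B cells. Endothelial markers, at 3.14 to 6.09 RPKM in vehicle and 8.42 to 13.6 in combination samples, rose in 2 of 2. The 1 neuronal marker tested fell. The homeostatic microglia, dendritic, B cell, endothelial and neuronal sums did not overlap between vehicle and combination. T cell markers summed to 1.62 to 2.95 RPKM in vehicle and 5.19 to 9.20 in combination samples, also without overlap. None of the T cell markers reached the filter. The part of these markers in the fall of the replication and mitosis genes was not tested.

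In U87-MG tumors the set was lower after 7aaRGD in every member tested, and no member passed. Of 49 members, 0 passed in limma, as did 0 of all 9668 genes, of which 138 were higher and 227 lower at an unadjusted p under 0.05. At that unadjusted p, 14 members were lower (28.6%), 13 of S phase and the mitotic member Ect2, where 2.35% of all genes were. All 3 7aaRGD samples lay below all 3 vehicle samples in 20 members (40.8%), where 6.39% of genes did so. The median was -0.49, beside -0.0027 over all genes. The direction was not particular to 7aaRGD, since 47 of 49 members were also below vehicle after the control peptide 7aaRAE (median -0.34). Bub1, Ccne2, Cdc6, Cenpe and Cenpf were below the filter. The study named Mcm5, Mcm6, Mcm7, Pcna and Mki67 (Ki67) from these samples, so their direction is not independent evidence.

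Mcm5 was at 13.1, 17.8 and 17.7 RPKM after vehicle and 15.1, 5.09 and 6.48 after 7aaRGD, so that 7aaRGD sample 1 lay inside the vehicle range (-0.92, SE 0.44, adjusted p = 0.94). Mcm6 was at 8.48, 14.8 and 16.8 after vehicle and 10.4, 6.70 and 7.45 after 7aaRGD (-0.61, adjusted p = 0.94). Mcm7 was at 8.49, 12 and 12 after vehicle and 8.55, 5.24 and 5.04 after 7aaRGD (-0.72, adjusted p = 0.94). In these helicase genes, 7aaRGD samples 2 and 3 lay below all vehicle samples. Of the roles, licensing held 6 of the 14 members at an unadjusted p under 0.05 (of 11 tested), the fork 4 (of 8) and chromatin behind the fork 2 (of 2).

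Pcna was at 32.3, 39.3 and 42.1 RPKM after vehicle and 31.8, 27.7 and 25.9 after 7aaRGD, with the nearest samples of the 2 groups within 1 RPKM (-0.40, adjusted p = 0.94). Mki67 was at 5.30, 4.60 and 4.89 after vehicle and 2.78, 3.82 and 3.04 after 7aaRGD without overlap (-0.50, SE 0.25, adjusted p = 0.94). Rfc3 had the smallest adjusted p of the set (0.73), at 2.99, 3.26 and 3.53 after vehicle and 2.19, 1.99 and 2.05 after 7aaRGD (-0.47, SE 0.09). Uhrf1 had the difference farthest from 0, from 7.54 ± 1.58 to 3.23 ± 2.15 RPKM (-1.11, SE 0.44), with 5.66 RPKM in 7aaRGD sample 1 beside 1.59 and 2.44.

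**Figure D4:**
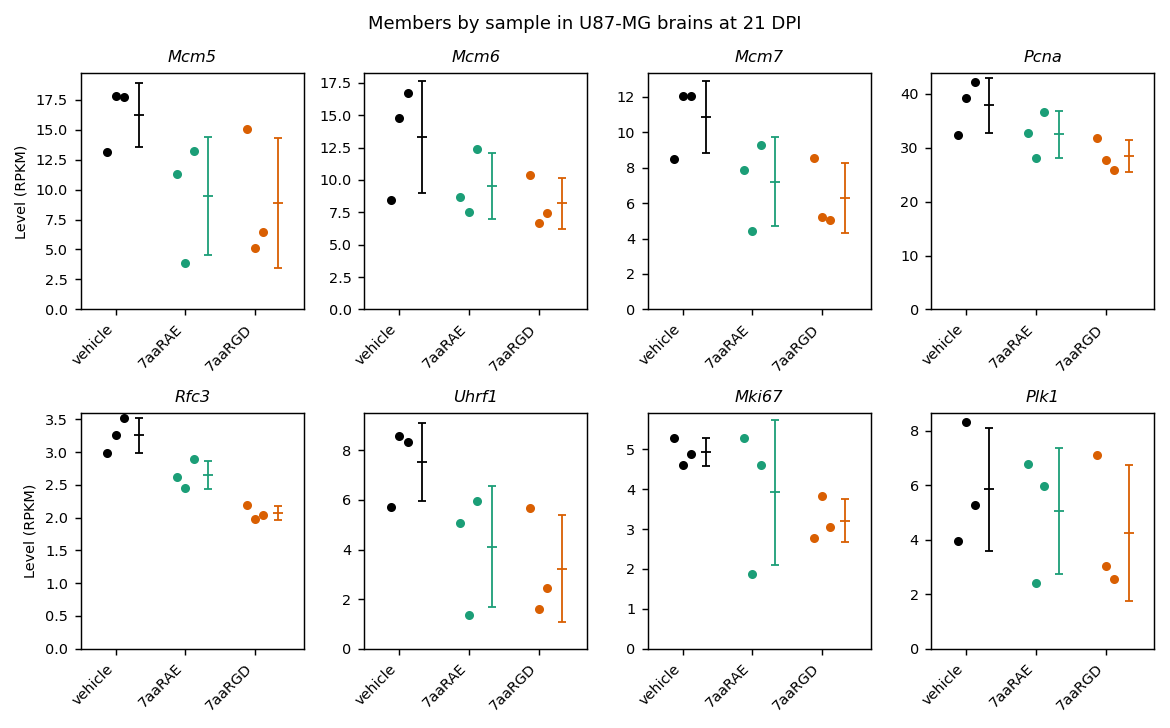
Level in RPKM of 8 members in each U87-MG sample after vehicle, 7aaRAE and 7aaRGD, with the mean and SD beside the points. One 7aaRGD sample lies near the vehicle samples for the helicase genes, Uhrf1 and Plk1, and one 7aaRAE sample lies far below the other 2 for Mcm5, Uhrf1, Mki67 and Plk1.

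Single samples set much of the spread. 7aaRGD sample 1 was the highest of its group for 45 of 49 members, vehicle sample 1 had the lowest vehicle value for 47, and 7aaRAE sample 2 had the lowest 7aaRAE value for 47 and the lowest of all 9 samples for 29. The summed mitotic level was 75.2, 114 and 90.7 RPKM after vehicle, 75.5, 57.2 and 44.6 after 7aaRGD and 99.1, 35.0 and 95.4 after 7aaRAE.

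For 7aaRAE against vehicle, 0 of 49 members passed and 3 (6.12%; Gmnn, Gins2 and Rfc3) were lower at an unadjusted p under 0.05. At that p, 415 of 9668 genes were lower. In 4 members (8.16%) the groups did not overlap in this direction, where 9.45% of genes did so. The median was -0.34, and -0.07 without 7aaRAE sample 2. For 7aaRGD against 7aaRAE, 0 members passed and the median was -0.16. At an unadjusted p under 0.05, 2 members (4.08%) and 154 of 9668 genes were lower. The 95% intervals of the member differences between the 2 peptides had a median half-width of 0.57 on the log2 scale. They held 0 for 47 of 49 members, so that differences of this size between the 2 peptides could not be detected. All 3 comparisons share samples pairwise. In 7aaRGD against vehicle, the other lists of the cell cycle gave 0 calls, with medians of -0.16 for 30 other replication genes, -0.33 for 38 other mitosis genes, -0.08 for 15 regulators and -0.05 for 16 G1 genes. NK cell markers summed to 7.75 to 21.5 RPKM after vehicle, 1.47 to 7.21 after 7aaRGD and 0.269 to 1.97 after 7aaRAE, and their part in the lower values was not tested.

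Tpx2, which targets Aurka to the spindle, was apart in opposite directions after 7aaRGD in the 2 models at 21 DPI. It was at 3.65, 3.31 and 3.08 RPKM against 2.23, 3.05 and 3.04 with vehicle in GL261, and at 2.94, 2.33 and 1.98 against 3.78, 4.65 and 4.48 in U87-MG. The nearest GL261 samples were almost equal, at 3.08 and 3.05 RPKM. In GL261, 12.5% of all genes were apart upward. In U87-MG, 40.8% of members and 6.39% of all genes were apart downward. The model, the mouse strain and the sequencing experiment cannot be told apart here.

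**Figure D5:**
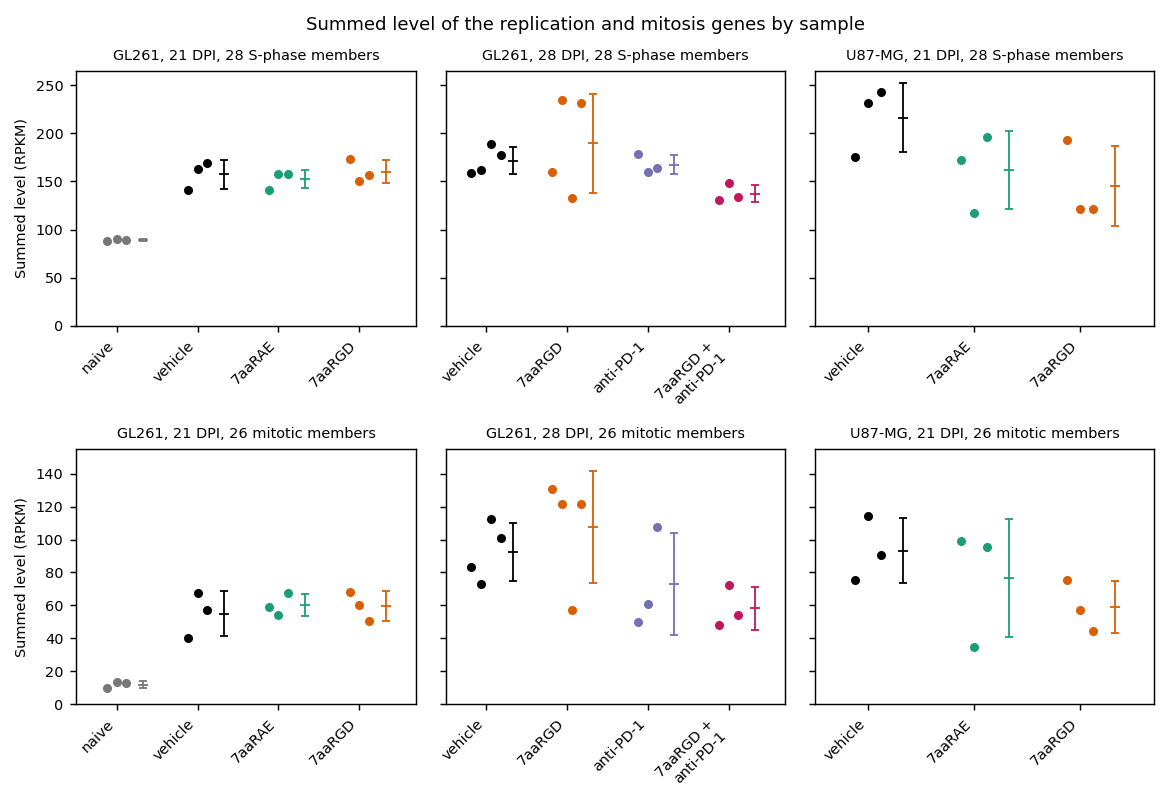
Summed level in RPKM of the 28 S-phase members (top) and the 26 mitotic members (bottom) in each sample of the 3 experiments, with the mean and SD beside the points. Naive samples sum to 88.3 to 90.3 and 9.69 to 13.3 RPKM, and among the tumor groups the SD is largest for 7aaRGD at 28 DPI in the S-phase members (51.3 RPKM, followed by 41.6 for 7aaRGD in U87-MG) and for 7aaRAE in U87-MG in the mitotic members.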

How the data were processed

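CD11b+ cells were sorted by flow cytometry from tumor-bearing hemispheres and stranded polyA libraries were sequenced. Reads were trimmed, aligned with STAR to the mouse genome (mm10) and counted per gene with HTSeq 0.11.1. The authors deposited 3 tables whose unit and scaling are not described. The deposited values were taken as RPKM that the authors had computed from these counts and shifted by a constant of 2, because rows without signal hold exactly 2 and, after subtraction, value times gene length sums to nearly the same total in each library. Between 3.13% and 8.78% of the rows of a library lay below the constant and were set to 0 on the log scale. The depth is unknown from these files, so no counting interval is given.

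Protein-coding genes (21908 rows, by the GRCm38 annotation) with a mean of at least 1 RPKM over the samples fitted were tested with limma 3.58.1 (lmFit, eBayes with trend, R 4.3.3) on log2(RPKM + 1), which understates changes of low genes. Benjamini-Hochberg adjustment ran over all genes tested, and an adjusted p under 0.05 was called. All tumor groups of an experiment shared 1 fit, whereas naive was fitted with vehicle alone. Such p-values measure the spread between samples. The smallest dimension of the residuals was 0.038 and 0.043 of the largest at 21 and 28 DPI of GL261, so fits with 1 fewer residual degree of freedom were also made. Scripts were tested on simulated data.

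The members and lists were chosen with earlier results of these data known. Genes named were a panel of frequently used members and, per comparison, the 5 largest rises and falls past the threshold, calls against the majority and the smallest adjusted p. Others are marked as named after their values were seen, stand in a count of a role or direction, or were named outside these rules. The last include Gmnn, Cdt1, Rfc3, Rrm1 and Tyms in vehicle against naive and Ccnb2 in the combination against vehicle. Of 40 samples, 35 had a column, and 5 (1 anti-PD-1, 1 combination and 3 naive nude samples) were not analysed here. Alternatives were another pseudocount, filter, scaling, set of groups or rows, threshold, the replicate block, and each sample left out in turn. Same-numbered samples had correlated residuals in 1 of 18 pairs at 21 DPI and 3 of 19 at 28 DPI, so the numbers were not taken to pair them.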

Additional observations from a re-analysis of the deposited data

Results flagged for a closer look

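In groups of 4 samples at 28 DPI, 1 sample stood apart from the rest of its group for 7 of the 82 values examined, where chance flags about 1 in 20. Of these, 6 were 7aaRGD sample 3, at 1.83 RPKM for Ccna2, 5.19 for Bub1b, 2.02 for Ube2c, 1.78 for Kif20a, 1.11 for Prc1 and 57.3 for the summed mitotic members. These values come from the same library and are not independent. The remaining value was Prim1 in vehicle sample 3, at 2.09 RPKM.

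Tpx2 differed by 0.21 on the log2 scale after 7aaRGD in GL261 and by -0.64 in U87-MG at 21 DPI, with every 7aaRGD sample above every vehicle sample in the first model and below in the second. The difference between the models was not tested, and neither value passed within its model (adjusted p = 0.43 and 0.94).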

How the results depend on the processing

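The number of members called moved by over 1.5 times in 2 of 17 alternatives for vehicle against naive, in 9 of 18 for the combination against vehicle and in 7 of 18 for the combination against 7aaRGD. Counts of 0 say nothing of stability. For vehicle against naive it was 28, 50 with no filter and 7 with a mean of at least 5 RPKM, with 27 to 29 when each sample was left out. For the combination against vehicle it was 15, 8 with no filter, 4 with a mean of at least 5 RPKM, 30 with only the 2 groups in the fit, 7 with the replicate block, 23 at an adjusted p under 0.1 and 7 to 16 with each sample left out. One member, Lig1, was then called higher without vehicle sample 3 (0.47, adjusted p = 0.034). For the combination against 7aaRGD it was 23, 5 with a mean of at least 5 RPKM, 12 with the replicate block and 5 to 42 with each sample left out. For anti-PD-1 against vehicle it was 0, 3 at an adjusted p under 0.1 and 0 to 1 with each sample left out. Stricter and looser filters change which genes are tested; the cause of the other shifts was not tested. The block moved no other count of members by over 1.5 times. No paired analysis was possible for U87-MG because its columns carry no replicate number. Treating the 3 U87-MG columns with under 5% of values below the constant as a batch, added after seeing the data, left 0 calls.

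Of 978 alternatives for single genes, 865 kept direction and call, 90 lost the call, 19 gained one and 4 reversed. The reversals were Mcm3 in vehicle against naive (0.0014 with median-of-ratios factors) and Tyms in the same comparison (between -0.030 and 0.043 with each sample left out, below 0 without vehicle sample 2, vehicle sample 3 or naive sample 3), neither of which passed in those fits. With 3 or 4 samples a group and unknown depth, members with a mean under 1 RPKM were not tested in the main fits. They enter only the descriptive sums, counts and ratios over all 54 members.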
